A study of Mus musculus with 10 samples.

Results

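The genes described here are 34 genes of endothelial cells and of the blood-brain barrier, taken from the 24814 genes of the deposited expression table by a list of symbols. All 34 have a row. They were read in 10 RNA libraries of the embryonic day 12 mouse cortex, each labelled as a separate animal. The 5 cKO libraries are Emx1 Cre/+; Zbtb7a fl/fl, a conditional knockout of the zinc finger repressor gene Zbtb7a, and the 5 WT libraries are Emx1 Cre/+; Zbtb7a +/+, so both genotypes carry the Cre driver. Emx1-Cre acts in progenitors of the dorsal telencephalon. Endothelial cells do not arise from that lineage, so their floxed alleles are not expected to be cut. The labels give the litter as the batch. Litter 1 holds cKO 1, cKO 2, cKO 3, WT 1 and WT 2, litter 3 holds cKO 4, WT 3 and WT 4, and litter 5 holds cKO 5 and WT 5. The design text of the series speaks of 2 litters and 3 cortices per genotype. It does not match these labels, which were used here.

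Blood vessels enter the embryonic cortex from the plexus that surrounds the neural tube. Sprouting is guided by VEGF, which binds the endothelial receptors encoded by Kdr and Flt1, while the angiopoietin receptor Tek and its partner Tie1 act in vessel remodelling and stability. As vessels mature into a barrier, endothelial cells build tight junctions with Cldn5, take up lipid through Mfsd2a and lose Plvap, which forms the diaphragms of leaky vessels. Transcription factors of the ETS and SOXF families keep endothelial identity.

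Promoter stretches are shown for the 4 members that were called between litters, as described further on. RefSeq on GRCm38.p6 gave promoter windows for 19 of the 34 members. Each line holds the 250 bases before an annotated start, 5′ to 3′ in the sense of the gene, and the first window is shown where a gene has several. Capitals mark CAGGAAG, a core of ETS sites, and AACAAT, a core of SOX sites, on either strand (CTTCCTG and ATTGTT when read from the other strand).
Tal1 (chr4:115056176-115056425, plus strand): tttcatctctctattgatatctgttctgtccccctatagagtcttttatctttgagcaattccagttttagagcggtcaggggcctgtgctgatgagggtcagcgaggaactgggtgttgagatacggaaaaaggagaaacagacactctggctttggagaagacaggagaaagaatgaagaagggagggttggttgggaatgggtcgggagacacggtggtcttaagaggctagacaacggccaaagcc
Emcn (chr3:137340828-137341077, plus strand): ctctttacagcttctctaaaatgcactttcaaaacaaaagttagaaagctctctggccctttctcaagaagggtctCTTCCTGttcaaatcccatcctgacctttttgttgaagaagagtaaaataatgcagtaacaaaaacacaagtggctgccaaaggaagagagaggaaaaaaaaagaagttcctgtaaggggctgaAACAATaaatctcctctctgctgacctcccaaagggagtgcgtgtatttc
Egfl7 (chr2:26580833-26581082, plus strand): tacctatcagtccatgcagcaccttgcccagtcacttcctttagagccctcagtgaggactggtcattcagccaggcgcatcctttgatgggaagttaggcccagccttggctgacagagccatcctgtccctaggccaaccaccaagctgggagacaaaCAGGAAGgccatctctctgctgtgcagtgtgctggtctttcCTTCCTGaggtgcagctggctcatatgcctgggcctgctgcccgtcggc
Clec14a (chr12:58269259-58269508, minus strand): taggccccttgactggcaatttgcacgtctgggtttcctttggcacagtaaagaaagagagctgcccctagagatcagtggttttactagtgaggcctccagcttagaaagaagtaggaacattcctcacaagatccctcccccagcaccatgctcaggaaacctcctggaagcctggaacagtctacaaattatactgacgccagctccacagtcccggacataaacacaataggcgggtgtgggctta
The ETS letters begin 174 bases before the start in Emcn, and 90 and 49 in this window of Egfl7. The SOX letters begin 50 bases before the start in Emcn. The windows of Tal1 and Clec14a hold neither, and the 2 motifs do not overlap in these stretches. The ETS letters occur in 6 of the 25 windows of members, or 24.0%, against 10.8% of all 32851 windows in the table. The SOX letters occur in 3 of the 25, or 12%, against 9.42% of all windows. Some members have several windows, which can share sequence. A match is a string of letters and was not tested as a binding site.

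Values are TPM, transcripts scaled by transcript length and to a total of 1000000 per library, and can be compared between genes. The file gives no counts, and sequencing depth is therefore unknown. Zbtb7a, as the check of the labels, was at 3.50 to 5.96 TPM in the cKO libraries and 7.20 to 12.53 TPM in the WT libraries, with no overlap. Any pair of libraries correlated at 0.949 to 0.984 over the tested genes (Pearson, across genes), and no pair of libraries held identical values. Tests were made with limma on log2(TPM + 1), a scale on which the change of genes with low TPM is understated, over the 13833 genes with at least 1 TPM in at least 5 libraries. Of the 34 members, 32 passed this filter. Slco1c1 and Abcb1a did not. The p-values reflect how much animals varied beyond the fitted terms for litter and genotype. Where litter 3 is compared with litter 1, a single litter stands on each side. The p-values there do not measure how much litters vary.

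The defining markers of endothelium were present in every library, from Erg at 1.84 TPM or more to Cldn5 at 18.87 TPM or more. The highest means over the 10 libraries were those of Ramp2 at 30.7 TPM, Egfl7 at 30.6 TPM, Cd34 at 29.8 TPM, S1pr1 at 27.5 TPM and Cldn5 at 25.7 TPM. Neighbours in this order differed by less than their spread over libraries, which had an SD of 8.41 TPM for Ramp2 and 8.79 TPM for Egfl7. The lowest tested member was Esm1, an endothelial proteoglycan of sprouting tips, at 1.11 TPM. Mfsd2a and S1pr1 were the steadiest members, with coefficients of variation of 8.50% and 9.21% over the libraries. Slco1c1 at 101%, Lyve1 at 79.9%, Ocln at 70.3% and Tal1 at 50.1% varied the most. The summed TPM of the 34 members was 384, 321, 387, 474 and 274 in cKO 1 to cKO 5, against 355, 361, 460, 409 and 492 in WT 1 to WT 5. It was lowest in cKO 5 and highest in WT 5, and the genotypes overlapped. In bulk tissue, fewer endothelial cells and less RNA per endothelial cell cannot be told apart.

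**Figure D1:**
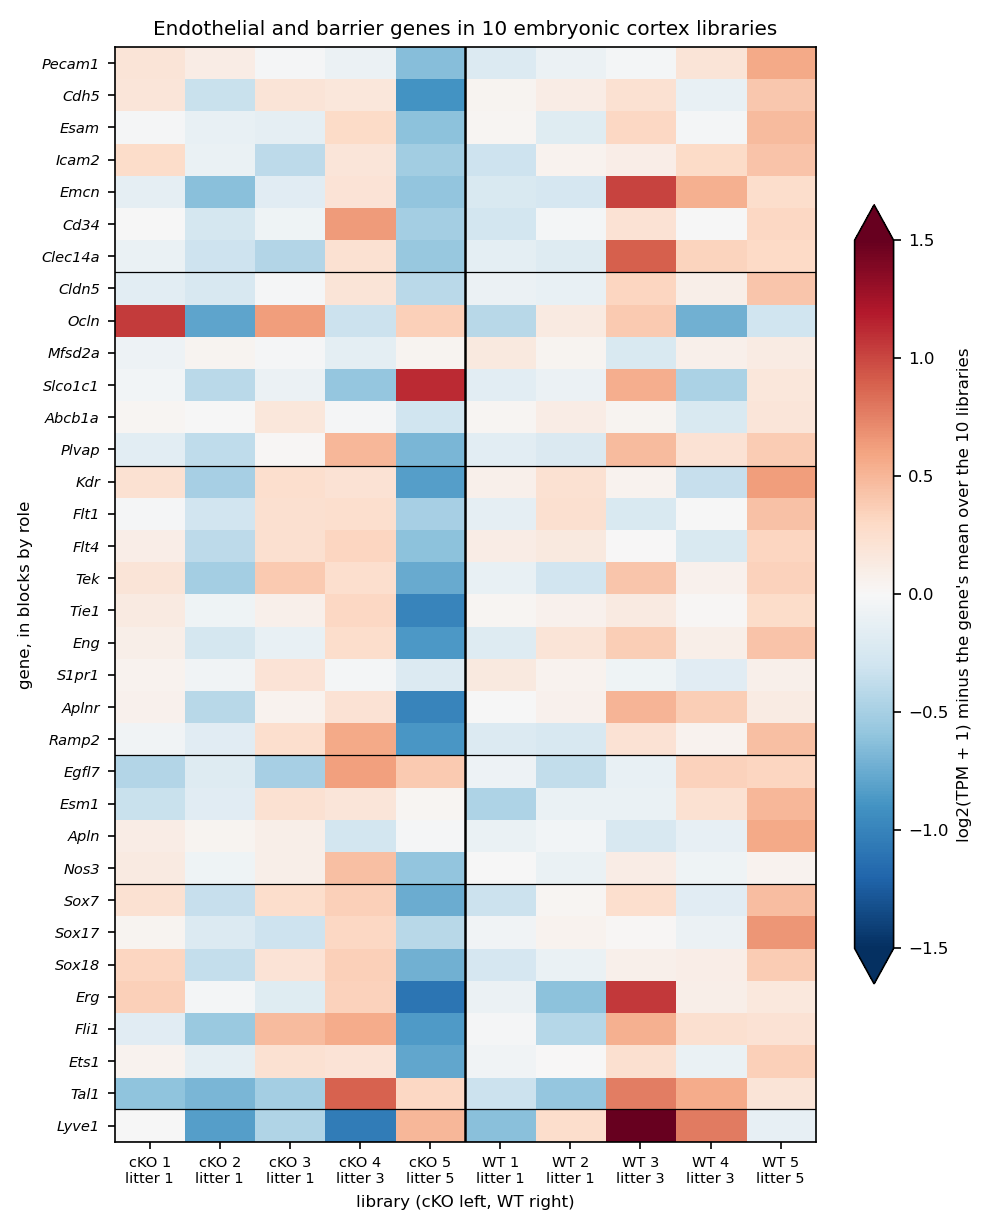
Heat map of the 34 members, by role down the page, in the 10 libraries, with cKO left of WT and the libraries of each genotype ordered by litter. Colour, which saturates at the ends of the scale, gives log2(TPM + 1) minus the gene's own mean over the libraries, and cKO 5 is below the mean for most members while WT 5 is above it.

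The first comparison asks whether vascular transcripts differ when Zbtb7a is deleted from the dorsal telencephalic lineage. No member passed the test in cKO against WT. The count was 0 of 32 tested members, where 0.0361% of all tested genes were called (limma, Benjamini-Hochberg adjusted over all genes). The adjusted p was 1.00 for each member, and 0 of 32 had an unadjusted p under 0.05, against 2.34% of all genes. The estimate was below 0 for 27 of 32 members, against 56% of all genes. The members' median log2 fold change was -0.14, against -0.01 over all genes. The cKO and WT libraries overlapped for every tested member, while they did not overlap for 0.282% of all genes. On the log2(TPM + 1) scale, the 95% intervals excluded a 2-fold lower level in cKO for 31 of 32 members. They excluded a 2-fold change in either direction on that scale for 30. A 2-fold change in TPM is smaller on this scale for members with low TPM, and can lie inside their intervals. Exact two-sided permutation tests of 17 members gave p from 0.0794 to 0.992 over all splits, where 0.00794 is the smallest possible. Within litters they gave p from 0.150 to 0.983, where 0.0167 is the smallest possible.

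Among the adhesion molecules, Cdh5 (ENSMUSG00000031871, chromosome 8, 104101625 to 104144511 on GRCm38) encodes VE-cadherin of endothelial junctions. Cdh5 had 20.93, 14.28, 20.97, 20.72 and 9.37 TPM in cKO 1 to cKO 5, against 18.90, 19.87, 21.50, 16.84 and 24.53 TPM in WT 1 to WT 5. cKO 5 was lowest, cKO 2 next, and WT 5 highest. The other libraries of both genotypes lay within one range. The fitted log2 fold change was -0.28 (SE 0.21; limma, unadjusted p = 0.222). Pecam1 encodes the adhesion protein CD31, and it had 18.19, 17.18, 15.67, 14.83 and 9.82 TPM in the cKO libraries against 13.65, 14.87, 15.50, 18.29 and 24.01 TPM in the WT libraries. The extremes were again cKO 5 and WT 5, and 3 of the cKO libraries exceeded 3 of the WT libraries. Its log2 fold change was -0.18 (SE 0.20; limma, unadjusted p = 0.381). Emcn, the sialomucin endomucin of capillaries and veins, had 9.14, 6.23, 8.91, 11.89 and 6.40 TPM in cKO against 8.56, 8.35, 21.47, 15.11 and 12.43 TPM in WT. Its highest value was WT 3 and its lowest cKO 2. Emcn had the second smallest p of the members at -0.38 (SE 0.17; limma, unadjusted p = 0.0548). Clec14a, a surface lectin of endothelium, had 4.06, 3.36, 2.98, 5.34 and 2.65 TPM in cKO against 3.87, 3.72, 9.08, 5.84 and 5.66 TPM in WT. The genotypes overlapped here too, with cKO 5 lowest and WT 3 highest. Esam, Icam2 and Cd34 had estimates of -0.20, -0.17 and 0.00.

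Tight junction and barrier genes spanned the steadiest and the most variable members. Cldn5 (ENSMUSG00000041378, chromosome 16, 18776847 to 18778262) had 22.49, 21.27, 25.00, 29.11 and 18.87 TPM in cKO against 23.68, 23.23, 31.83, 27.01 and 34.06 TPM in WT. Again cKO 5 was lowest and WT 5 highest, and the estimate was -0.19 (SE 0.13; limma, unadjusted p = 0.173). Mfsd2a (ENSMUSG00000028655, chromosome 4, 122946850 to 122961188), the lysophospholipid transporter of barrier endothelium, had 20.01, 21.80, 20.83, 19.06 and 21.75 TPM in cKO against 23.51, 21.85, 17.84, 22.43 and 23.19 TPM in WT. All 10 values lay within a narrow range, and the 95% interval of the log2 fold change was -0.29 to 0.10. Plvap had 18.25, 15.48, 20.72, 29.43 and 12.40 TPM in cKO against 18.27, 17.53, 28.96, 24.00 and 26.89 TPM in WT. Its range thus overlapped between genotypes, with cKO 4 highest and cKO 5 lowest. The thyroid hormone transporter Slco1c1 had 0.57, 0.22, 0.53, 0.08 and 2.52 TPM in cKO against 0.45, 0.52, 1.37, 0.17 and 0.83 TPM in WT. The drug efflux pump Abcb1a had 0.84, 0.79, 1.02, 0.78 and 0.46 TPM in cKO against 0.84, 0.94, 0.85, 0.53 and 1.04 TPM in WT. Both stayed under the filter and were not tested with limma, and Slco1c1 stood highest in cKO 5 while Abcb1a stood lowest there. Reads of Abcb1a can be shared with its close paralog Abcb1b, and the authors' handling of such reads is not stated. Ocln, which encodes the junction protein occludin and is also expressed in epithelia, ranged from 0.41 to 4.06 TPM in cKO and from 0.48 to 2.22 TPM in WT.

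Receptors of growth factors and lipids gave the same picture. Kdr, the main signalling receptor of VEGF, had 15.91, 9.21, 16.20, 15.73 and 7.10 TPM in cKO against 14.14, 15.82, 13.91, 10.35 and 21.25 TPM in WT. Flt1, a VEGF receptor that also acts as a decoy, had 4.20, 3.31, 5.23, 5.31 and 2.74 TPM in cKO against 3.80, 5.25, 3.50, 4.27 and 6.17 TPM in WT. In both receptors cKO 5 was lowest, cKO 2 next lowest and WT 5 highest. Tek, the angiopoietin receptor, had 6.13, 3.37, 7.14, 6.41 and 2.68 TPM in cKO against 4.74, 4.08, 7.33, 5.51 and 6.91 TPM in WT. Its partner Tie1 had 10.62, 9.13, 10.10, 12.15 and 4.32 TPM in cKO against 9.80, 10.03, 10.60, 9.72 and 11.82 TPM in WT. Apart from cKO 5, the Tie1 values lay between 9.13 and 12.15 TPM. Estimates were -0.28 for Kdr, -0.13 for Flt1, -0.11 for Tek and -0.20 for Tie1. The smallest unadjusted p of all members belonged to Aplnr, the apelin receptor, at a log2 fold change of -0.36 (SE 0.17; limma, unadjusted p = 0.0541). Aplnr had 19.28, 13.50, 19.18, 21.51 and 8.80 TPM in cKO against 18.34, 19.31, 26.60, 24.11 and 20.08 TPM in WT. Only cKO 2 and cKO 5 lay below all WT libraries. Eng, a TGF-beta co-receptor, had an estimate of -0.31, Flt4, the VEGF-C receptor, one of -0.15 and S1pr1, a sphingosine phosphate receptor, one of -0.05.

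Of the secreted factors and the nitric oxide synthase Nos3, estimates were -0.07 for the ligand Apln, 0.03 for Esm1, 0.04 for Nos3 and 0.08 for Egfl7. Among the transcription factors, 6 of 7 had estimates below 0. Sox17, a SOXF factor of arteries, had 5.17, 4.20, 3.84, 6.46 and 3.50 TPM in cKO against 4.80, 5.24, 5.09, 4.67 and 8.56 TPM in WT. Erg, an ETS factor of endothelium, had 6.76, 4.93, 4.36, 6.74 and 1.84 TPM in cKO against 4.73, 2.96, 11.65, 5.46 and 5.80 TPM in WT. For both factors cKO 5 was the lowest library, and the highest was WT 5 for Sox17 and WT 3 for Erg. The estimates were -0.22 and -0.13, beside -0.07 for Sox7, -0.04 for Sox18, -0.11 for Fli1, -0.17 for Ets1 and 0.01 for Tal1. Annotated exons on the other strand cover 16.8% of the exon bases of Sox17 and 25.2% of those of Nos3, and whether reads were counted by strand is not stated. Lyve1, expressed by lymphatic endothelium and by macrophages, had the lowest estimate at -0.61, with an SE of 0.41. Prox1, the lymphatic identity factor, is also expressed in neural progenitors, and the lymphatic chemokine Ccl21a was listed at 0 in all libraries but cKO 2.

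**Figure D2:**
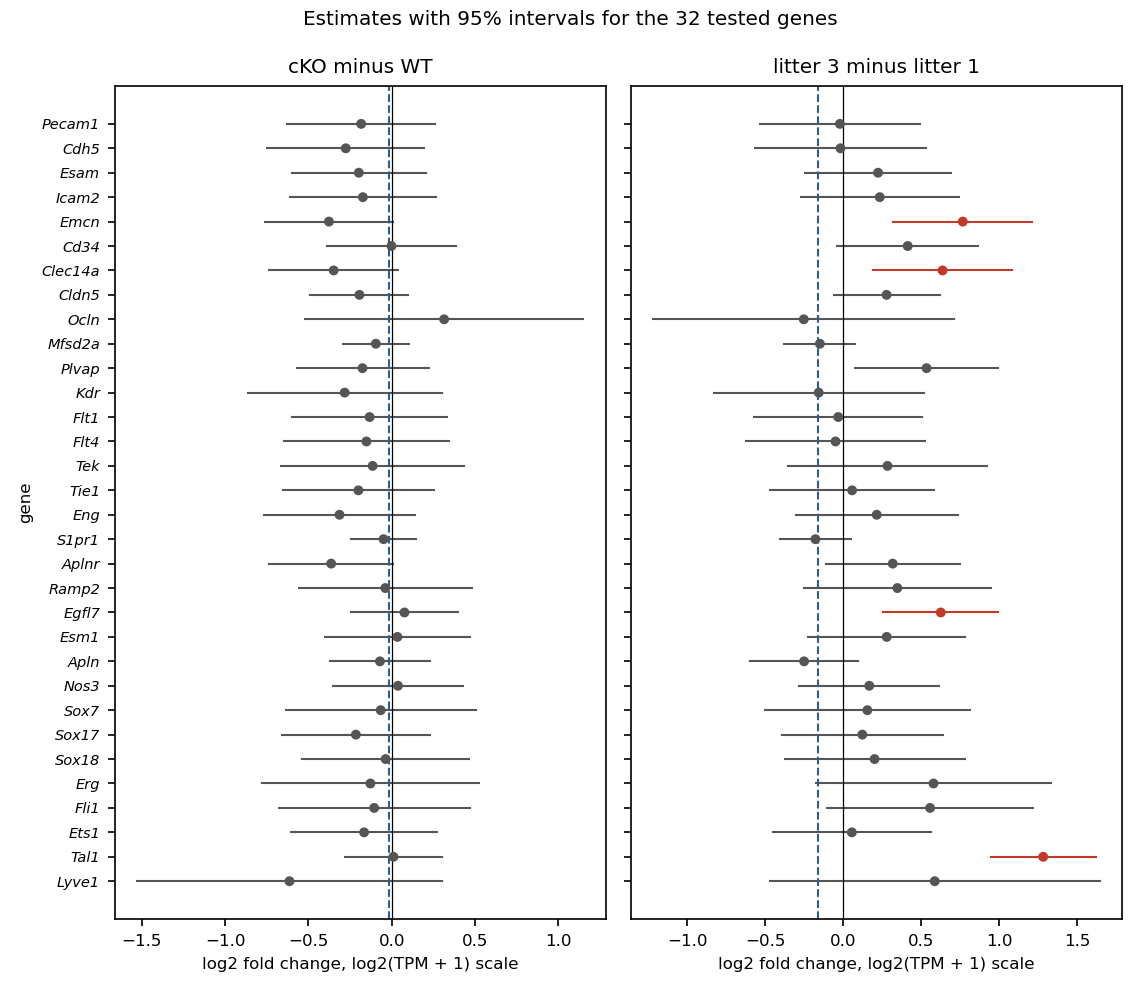
Fitted log2 fold changes of the 32 tested members on the log2(TPM + 1) scale, with 95% intervals from limma, for cKO against WT and for litter 3 against litter 1, with the median of all tested genes as a dashed line and called members in red. The genotype estimates lie mostly just below 0, and Tal1, Emcn, Egfl7 and Clec14a are the members called between litters.

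The genotype difference was not alike in the 3 litters. The median difference of the 32 tested members, cKO minus WT in log2(TPM + 1), was -0.01 in litter 1, 0.13 in litter 3 and -1.0 in litter 5. Over all tested genes the median was -0.02, 0.08 and -0.13. Members were lower in cKO for 16 of 32 in litter 1, 11 of 32 in litter 3 and 28 of 32 in litter 5. Of all tested genes, 54.4%, 36.1% and 64.7% were lower in cKO in these litters, in that order. Litter 5 holds a single library of each genotype. Without cKO 5 or without WT 5, which give the same genotype estimates, the members' median was 0.06, with 23 higher and 9 lower. Over all genes the median was 0.02 there, and 56.8% had estimates above 0. The members' estimates then ran from -0.94 for Lyve1 to 0.31 for Ramp2 (limma, adjusted p = 1.00 and 0.958). Xist, which marks libraries with an inactive X chromosome, was not balanced between the genotypes. It had 28.94, 0.00, 39.11, 70.53 and 0.00 TPM in cKO 1 to cKO 5. In WT 1 to WT 5 it had 0.00, 0.00, 20.44, 0.01 and 0.00 TPM. With the Xist level as a covariate, the members' median was -0.41, against -0.06 over all genes. There 11 of 32 members had an unadjusted p under 0.05 and a negative estimate, against 4.06% of all genes (limma). None passed the adjusted threshold there either.

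**Figure D3:**
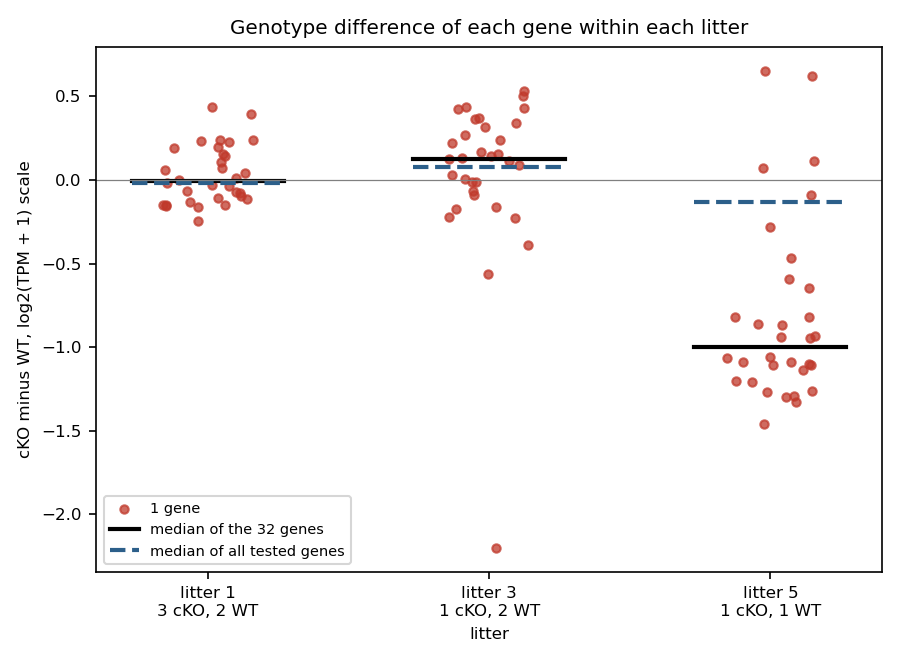
Difference of each tested member between cKO and WT within litter 1, litter 3 and litter 5, in log2(TPM + 1), 1 point per member with the medians of the members and of all tested genes. The members' median is -0.01, 0.13 and -1.0 in the 3 litters.

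In litter 5, most endothelial transcripts were far lower in cKO 5 than in WT 5, and a few were not. cKO 5 was the lowest of the 10 libraries for 24 of 32 members, against 12.6% of all genes, and WT 5 was the highest for 15, against 7.71%. Both held for 13 members, against 1.18%. cKO 5 lay below WT 5 by over 1.5-fold on the log2(TPM + 1) scale for 25 members, against 10.7% of all genes, and by over 2-fold for 16, against 3.01%. In TPM, Kdr stood in cKO 5 at 33.4% of its WT 5 level, Cdh5 at 38.2%, Ramp2 at 38.4%, Pecam1 at 40.9% and Cldn5 at 55.4%. The members that did not follow were Mfsd2a at 93.8%, S1pr1 at 81.8%, Egfl7 at 105%, Tal1 at 110%, Lyve1 at 174%, Ocln at 215% and Slco1c1 at 304%. Slco1c1 was highest in cKO 5 and WT 3, at 2.52 and 1.37 TPM. The choroid plexus marker Ttr was also highest in these libraries, at 689 and 267 TPM. The part of choroid plexus tissue in the Slco1c1 values was not tested. cKO 2 of litter 1 also stood low, below the mean of the 10 libraries for 29 of 32 members, with a median of -0.26 on the log2 scale against 0.01 over all genes. So did WT 1 of the same litter for 25 of 32 members, with a median of -0.11 against 0.09 over all genes.

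**Figure D4:**
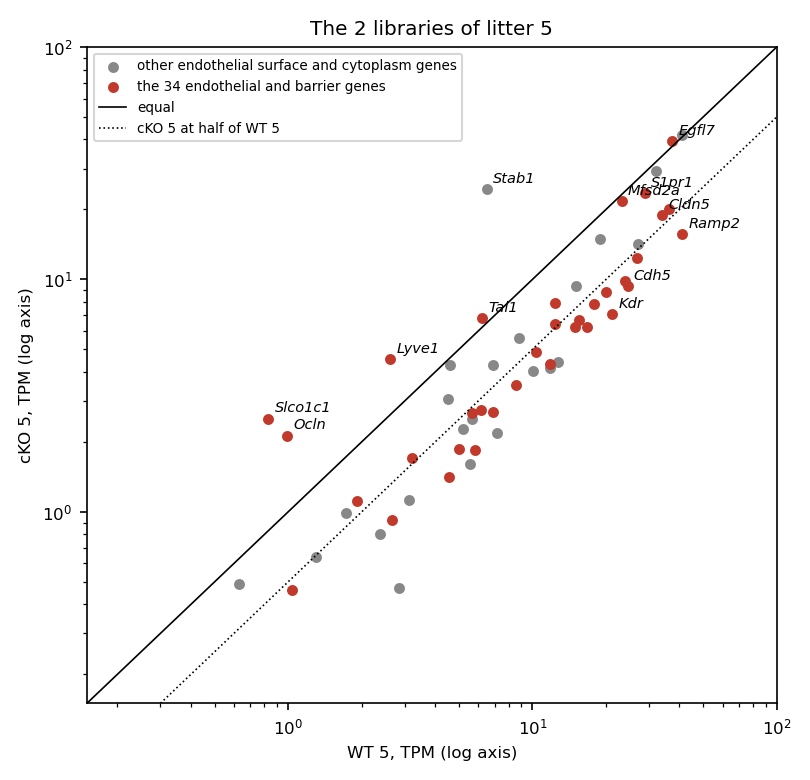
TPM in cKO 5 (vertical) against WT 5 (horizontal) on log axes, with 1 red point per member, 1 grey point per gene of the list of other endothelial surface and cytoplasm genes that was above 0 in both libraries, and lines of equality and of a level 2-fold lower than WT 5. Kdr, Cdh5 and Ramp2 lie under the lower line, while Mfsd2a, Egfl7 and Tal1 lie near equality.

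Whether the genotype difference depended on the litter was tested as an interaction. With litter 1 set against litters 3 and 5, 0 of 32 members were called, 0% of all genes were, and 1 member and 4.97% of all genes had an unadjusted p under 0.05 (limma). The members' median interaction was 0.42. It was 0.95 without cKO 4, against 0.11 over all genes. With cKO 4 left out, litter 3 holds no cKO library, so that contrast sets litter 1 against the single pair of litter 5. Without cKO 5 or without WT 5 the members' median interaction was -0.09, against -0.08 over all genes. An interaction with litter 5 against the other litters was added after these values were seen. It called 1 member, Ramp2, and 0.318% of all genes, and 22 of 32 members had a negative estimate with an unadjusted p under 0.05, against 10.8% of all genes. This contrast rests on cKO 5 and WT 5 alone, and the fit takes their spread from the other litters. Ramp2 encodes a partner of the adrenomedullin receptor, and it had 28.60, 26.27, 35.54, 44.35 and 15.71 TPM in cKO against 25.51, 25.03, 34.45, 30.64 and 40.93 TPM in WT. cKO exceeded WT on average in litters 1 and 3, and the order was the other way in litter 5. The interaction was -1.63 on the log2 scale (SE 0.24; limma, adjusted p = 0.0416). Ramp2 shares 33.4% of its exon bases with Vps25 on the same strand, and reads there may be split between them. Vps25 was at 94.4 to 107.8 TPM in cKO and 106.1 to 107.9 TPM in WT, with 98.0 TPM in cKO 5 and 107.1 TPM in WT 5.

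Other vessel and tissue markers in litter 5 stood as follows. Pericyte and mural cell markers summed to 76.4 TPM in cKO 5, the lowest of all libraries, against 112.5 TPM in WT 5. Of 10 tested, 7 were lower in cKO 5, close to the 64.7% of all genes that were. Their median difference, cKO 5 minus WT 5 in log2(TPM + 1), was -0.54, against -0.13 over all genes. Notch3, a Notch receptor on the pericyte list, had 25.98 TPM in cKO 5 and 37.4 TPM in WT 5. It had the highest mean of that list, 35.6 TPM, and whether its transcripts come from pericytes was not tested. Vtn had 15.09 TPM in cKO 5 and 26.62 TPM in WT 5. The contractile protein gene Tagln had 4.90 TPM in cKO 5 and 4.75 TPM in WT 5. Mesenchyme markers summed to 246 TPM in cKO 5 and 328 TPM in WT 5, and 11 of 14 were lower in cKO 5, against 64.7% of all genes. Choroid plexus markers went the other way, at 796 TPM in cKO 5 and 298 TPM in WT 5, led by transthyretin (Ttr) at 689 TPM in cKO 5 and 251 TPM in WT 5. All 6 tested choroid plexus markers were higher in cKO 5, and so were 10 of 13 microglia and macrophage markers. Over all libraries the choroid plexus sum ranged from 4.00 to 796 TPM in cKO and from 28.2 to 351 TPM in WT, and Ttr was listed at 0 in cKO 2. The part of these other cells in the litter 5 difference was not tested.

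The second comparison sets litter 3 against litter 1, with genotype as a term. Of 32 members, 4 were higher in litter 3 and 0 lower, where 31.6% of all genes were called and 5.8% were called higher (limma, adjusted p under 0.05). The estimate was above 0 for 23 of 32 members, against 34.1% of all genes. The members' median log2 fold change was 0.22, against -0.16 over all genes. Without cKO 4 the members' median was 0.03, against -0.22 over all genes. There 19 of 32 members were above 0, against 31.0% of all genes. The balance of all genes depended on the scaling. The calls over all genes were 803 higher and 3575 lower as deposited, and 1728 higher and 1845 lower with median-ratio scaling, where 51.3% of all genes had estimates above 0. That scaling moved the median of all genes to 0.01 and that of the members to 0.39, with 30 of 32 members above 0. The litter 3 libraries were all above those of litter 1 for 7 of 32 members, against 7.34% of all genes. These were Emcn, Cd34, Clec14a, Cldn5, Plvap, Aplnr and Tal1. Cdh5 was at -0.02, Pecam1 at -0.02 and Kdr at -0.16 on the log2 scale, or 0.14, 0.14 and 0.01 above the median of all genes.

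Tal1 (ENSMUSG00000028717, chromosome 4, 115056426 to 115071755), a factor of blood and endothelial precursors that is also active in red cell precursors, differed the most. Tal1 had 10.62, 9.74 and 8.25 TPM in the litter 3 libraries cKO 4, WT 3 and WT 4. In litter 1 it had 3.14, 2.91, 3.42, 4.05 and 3.20 TPM in cKO 1, cKO 2, cKO 3, WT 1 and WT 2. The litters did not overlap, and the litter 5 libraries lay between them, at 6.80 TPM in cKO 5 and 6.21 TPM in WT 5. The log2 fold change was 1.28 (SE 0.15; limma, adjusted p = 0.00261), or 1.44 above the median of all genes. It was called under every alternative setting tried.

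Emcn (ENSMUSG00000054690, chromosome 3, 137341067 to 137432185) had 11.89, 21.47 and 15.11 TPM in litter 3 against 9.14, 6.23, 8.91, 8.56 and 8.35 TPM in litter 1. The groups did not overlap, and the log2 fold change was 0.76 (SE 0.20; limma, adjusted p = 0.0179), or 0.93 above the median of all genes. The adjusted p was 0.0530 without WT 1, 0.0553 without WT 2 and 0.0692 without WT 3 (limma). Egfl7 (ENSMUSG00000026921, chromosome 2, 26580014 to 26593120), a secreted matrix protein of sprouting vessels, had 45.95, 27.38 and 37.77 TPM in litter 3 against 21.46, 25.70, 20.56, 27.92 and 22.68 TPM in litter 1. WT 3 fell inside the range of litter 1, where WT 1 was highest. The log2 fold change was 0.62 (SE 0.17; limma, adjusted p = 0.0189), or 0.79 above the median of all genes. It was 0.38 without cKO 4 (limma, adjusted p = 0.143) and 0.58 without WT 4 (limma, adjusted p = 0.0573).

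Clec14a (ENSMUSG00000045930, chromosome 12, 58264720 to 58269290) had 5.34, 9.08 and 5.84 TPM in litter 3 against 4.06, 3.36, 2.98, 3.87 and 3.72 TPM in litter 1. The litters did not overlap. The log2 fold change was 0.64 (SE 0.20; limma, adjusted p = 0.0366), or 0.80 above the median of all genes. The adjusted p was 0.0624 without cKO 3, 0.0996 without cKO 4, 0.0932 without WT 1, 0.1001 without WT 2 and 0.129 without WT 3. Plvap had a log2 fold change of 0.53 with an unadjusted p under 0.05 and did not pass the adjusted threshold (limma, adjusted p = 0.0731), and stood 0.70 above the median of all genes. Without cKO 5 it was 0.60 (limma, adjusted p = 0.00712) and without WT 5 the adjusted p was 0.00748. Plvap had 29.43, 28.96 and 24.00 TPM in litter 3 against 18.25, 15.48, 20.72, 18.27 and 17.53 TPM in litter 1, with no overlap. Counts of members called were 2 without WT 1, without WT 2 or without WT 3, and 8 without cKO 5 or without WT 5. All of these calls were higher in litter 3. Of all 13833 genes, 577, 493 and 397 were called higher without WT 1, WT 2 and WT 3, in that order. Without cKO 5 there were 833, and without WT 5 there were 837.

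Red cell and mesenchyme markers moved with the litter. Erythroid markers were called higher in litter 3 for 12 of 13 tested genes, and they summed to 41892 to 55847 TPM in litter 3 against 17344 to 19750 TPM in litter 1. The embryonic globin Hbb-y had a log2 fold change of 1.40, Hba-a1 one of 1.30 and Hba-a2 one of 1.21 (limma, adjusted p = 0.000328, 0.00117 and 0.00261). The alpha globins Hba-a1 and Hba-a2 are near-identical copies, and reads may be split between them. Mesenchyme markers were called higher for 9 of 14, with summed TPM of 513 to 1112 in litter 3 and 240 to 365 in litter 1. Col3a1 and Col1a2, fibrillar collagen genes, were at 0.95 and 1.13 on the log2 scale, and Col1a1 was at 1.05 (limma, adjusted p = 0.00531, 0.0171 and 0.0406). The call of Col1a1 was lost when any one of cKO 1, cKO 3, cKO 4, cKO 5, WT 1, WT 2, WT 3 and WT 5 was left out (limma, adjusted p = 0.0508 to 0.0965). Of the pericyte markers, 2 were called higher and 1, Notch3, lower. Of the 10 tested, 6 had estimates above 0 and 4 below. Tagln was at 2.26, Vtn at 0.52 and Notch3 at -0.70 on the log2 scale (limma, adjusted p = 0.0108, 0.0761 and 0.0181). Notch3 was not called without WT 3 (limma, adjusted p = 0.0687). Microglia and macrophage markers were called higher for 2 of 13, with Fcer1g at 0.67, C1qb at 0.72 and Csf1r at 0.30 (limma, adjusted p = 0.0144, 0.0555 and 0.618). The part of these cells in the values of Tal1, Emcn, Egfl7 and Clec14a was not tested.

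**Figure D5:**
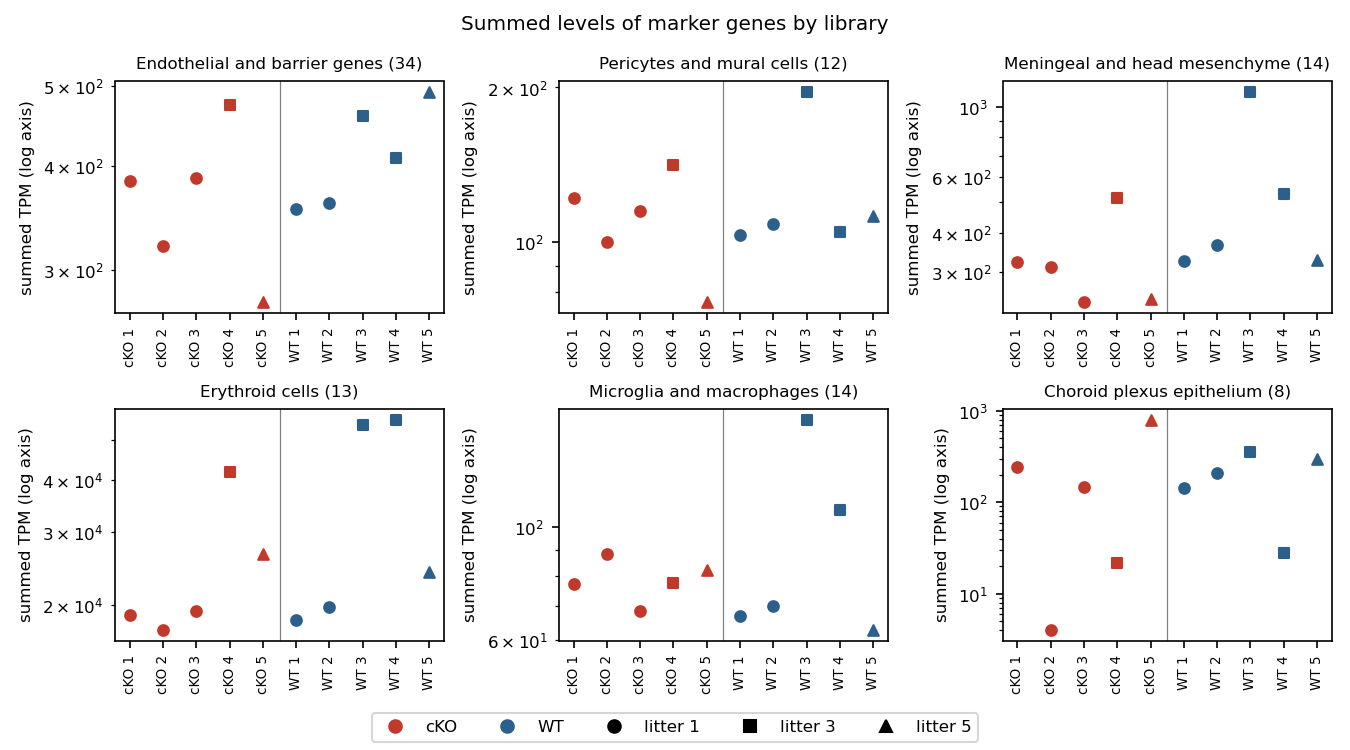
Summed TPM of the members and of marker lists of other cells in the 10 libraries, on a log axis per panel, with cKO left of WT, the litter shown by the symbol and the number of genes in brackets. The members' sum is lowest in cKO 5 and highest in WT 5, and the erythroid and mesenchyme sums are highest in litter 3.

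Other vascular genes were read from lists of 81 genes, of which 74 were tested. In cKO against WT, 0 were called, 57 had estimates below 0 and 17 above, with a median of -0.09. Over all genes, 0.0361% were called, 56% had estimates below 0 and the median was -0.01. The 2 smallest p of each list were Nrp1 at -0.38 and Nrp2 at -0.24, both co-receptors of VEGF and semaphorins, in the VEGF list, and the receptor Notch4 at 0.61 and the venous factor Nr2f2 at 0.38 in the list of Notch and vessel identity. The TGF-beta and Tie list was led by the Tek ligand Angpt1 at -0.35 and the receptor Tgfbr2 at -0.25, and the Wnt list by the co-receptor Lrp5 at -0.16 and the ligand Wnt7b at 0.13. The barrier list was led by the junction protein F11r at -0.28 and the amino acid transporter Slc7a1 at -0.14, and the list of endothelial surface and cytoplasm genes by Sparcl1 at -0.37 and Vwf at -0.57. Each had an adjusted p of 1.00 (limma). Notch4 was the largest of these estimates above 0, at 9.46 ± 2.57 TPM in cKO against 5.92 ± 2.94 TPM in WT (SD, n = 5 each).

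In litter 3 against litter 1, 6 of the 74 were called higher and 13 lower, beside 5.8% and 25.8% of all genes. With median-ratio scaling the counts were 8 higher and 9 lower. Without WT 3 they were 1 and 12, without cKO 4 they were 2 and 13, without WT 1 they were 3 and 13, and without WT 2 they were 4 and 12. Vegfb at -0.31 and Pgf at -0.84, both VEGF family ligands, were lower in litter 3 (limma, adjusted p = 0.0113 and 0.0225). With median-ratio scaling neither was called, at -0.12 for Vegfb and -0.72 for Pgf (limma, adjusted p = 0.346 and 0.0624), and Pgf was not called without WT 2 or cKO 4 (limma, adjusted p = 0.0593 and 0.161). Also lower were the Notch target Hey1 at -0.42 and the ephrin Efnb2 at -0.50, a mark of arteries that neural progenitors also express (limma, adjusted p = 0.00756 and 0.00909). Hey1 was not called with median-ratio scaling (limma, adjusted p = 0.114). Means over the 10 libraries were 61.3 TPM for Vegfb, 105 TPM for Hey1, 121 TPM for Efnb2 and 101 TPM for the ligand Wnt7b. The highest mean of a member was 30.7 TPM, for Ramp2. Which cells these transcripts come from was not tested. Bmper at -0.91 and Ltbp4 at -0.78, which act on BMP and TGF-beta ligands, were lower as well (limma, adjusted p = 0.00481 and 0.00385). So were Wnt7b at -0.53 and the Wnt effector Lef1 at -0.65 (limma, adjusted p = 0.00504 and 0.00632). Of the 15 tested genes of the Wnt list, 5 were called lower and 2 higher. The higher ones were Reck at 0.88 and Adgra2 at 0.81 (limma, adjusted p = 0.0154 and 0.0316). Both were highest in WT 3, at 12.11 and 21.81 TPM. In the barrier list Slc7a1 was lower at -0.76 and the amino acid transporter Slc38a5, which red cell precursors also express, was higher at 0.99 (limma, adjusted p = 0.00526 and 0.0171). In the endothelial list Podxl was lower at -0.59 and Itm2a higher at 0.54 (limma, adjusted p = 0.00777 and 0.0255). Podxl was not called with quantile normalisation (limma, adjusted p = 0.0568), and Itm2a not without WT 1 or WT 3 (limma, adjusted p = 0.0743 and 0.0799).

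The list of other endothelial surface and cytoplasm genes showed the litter 5 difference too. Its 22 tested genes had a median of -0.76 between cKO 5 and WT 5, and 20 of 22 were lower in cKO 5, against 64.7% of all genes. Genes named here were chosen after their values were seen. Cd93 was at 4.14 TPM in cKO 5 and 11.80 TPM in WT 5, and Robo4 at 1.61 TPM in cKO 5 and 5.55 TPM in WT 5. Rasip1 was at 4.42 TPM in cKO 5 and 12.68 TPM in WT 5, and Vwf at 2.19 TPM in cKO 5 and 7.13 TPM in WT 5. Cd93 and Robo4 encode endothelial surface receptors, and Vwf encodes von Willebrand factor. Against this, Stab1, a scavenger receptor of sinusoidal endothelium and macrophages, was at 24.47 TPM in cKO 5 and 6.49 TPM in WT 5. The median of the other 5 vascular lists lay between -0.46 and -0.18 in this pair, against -0.13 over all genes.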

How the data were processed

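RNA of 10 cortices was read from polyadenylated libraries, per the labels' protocols. The authors deposited TPM, scaled to 1000000 per library, with 2 decimals. The submitters' processing notes name cutadapt, featureCounts, DESeq2 and mm10, and the aligner, the tool behind the TPM and the use of strand are not given in the sources used here. The authors also deposited a table of 7 genes with fold changes, a test score and adjusted p-values, per the file headers, and it holds 0 of the members. The deposited fold changes are taken as log2, a base the file does not state, and none is printed. A further 5 unnamed columns with values were not used. TPM keeps no read depth, so no count model was used.

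Genes were placed with GENCODE M21. The test was limma 3.58.1 in R 4.3.3 on log2(TPM + 1) with terms for litter and genotype, empirical Bayes moderation with a trend, two-sided p-values and Benjamini-Hochberg adjustment over 13833 genes at 0.05. The pipeline was tested on simulated data. The members and all lists were chosen with earlier results of these data known. The genes described in full are Pecam1, Cdh5, Cldn5, Kdr, Flt1, Tek, Tie1, Mfsd2a, Slco1c1, Abcb1a, Plvap, Sox17, Erg and any other member with an unadjusted p under 0.05 in either comparison. Of each other vascular list, the 2 smallest p are named, and of each marker list up to 3 genes with the highest TPM. Emcn, Clec14a and Aplnr in the genotype comparison, Ramp2, and the genes named for the litter 5 pair were added after their values were seen. So were Reck and Adgra2 in the litter comparison.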

Additional observations from a re-analysis of the deposited data

Results flagged for a closer look

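A library stood far from the other 4 of its genotype for 3 of 68 groups of 5 libraries examined, a number that chance gives for about 5% of groups (Dixon's ratio above 0.71). Slco1c1 was at 2.52 TPM in cKO 5, while the other cKO libraries were at 0.57 TPM or less. Ttr, a choroid plexus marker, was highest in that library too, at 689 TPM. Apln was at 12.36 TPM in WT 5, while the other WT libraries were at 7.72 TPM or less. Sox17 was at 8.56 TPM in WT 5, while the other WT libraries were at 5.24 TPM or less. All of these lie in litter 5. The genotype effect of Ramp2 differed between litter 5 and the other litters by -1.63 on the log2 scale (limma, adjusted p = 0.0416), in a contrast chosen after the values of litter 5 were seen. It rests on 1 cKO and 1 WT library, and Ramp2 shares exon bases with Vps25.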

How the results depend on the processing

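The count of members called in cKO against WT was 0 under all 22 alternative settings. The members' median ranged from -0.41 with the Xist covariate to 0.06 without cKO 5 or WT 5, against -0.06 and 0.02 over all genes. It was -0.01 in litter 1 alone and -0.36 in litters 3 and 5 alone. Of 32 members, 25 changed sign under at least 1 setting and 7 kept it. Over all genes, 5 were called, against 3 with a minimum of 5 TPM, 3 with the Xist covariate, 1 in litter 1 alone, 3 in litters 3 and 5 alone, and 3 to 5 when 1 library was left out. The replicate block in place of the litter term called 2 genes and the replicate block beside it called 3, with member medians of -0.19 and -0.21, and the block changed no call of a member. The animal numbers do not pair the samples, since the correlations of same-numbered libraries were 0.27, 0.08, -0.29, 0.30 and -0.17 and no library matched its own number best. For litter 3 against litter 1, 4 members were called, against 7 with median-ratio scaling, 8 with quantile normalisation, and 2 to 8 when 1 library was left out. All of these calls were higher in litter 3. The genes called higher over all genes also rose, from 803 to 1728 with median-ratio scaling and 1612 with quantile normalisation. They numbered 397 to 837 when 1 library was left out. The members' median ranged from 0.00 with the Xist covariate to 0.39 with median-ratio scaling, and was 0.03 without cKO 4. Over all genes the median was -0.19, 0.01 and -0.22 in these settings, in that order. Over all genes 4378 were called, and 2585 to 4524 when 1 library was left out, the lowest without WT 3. Clec14a also lost its call with no filter (limma, adjusted p = 0.0925) and with the Xist covariate (limma, adjusted p = 0.108). The interaction with litter 5 called 1 member where that with litter 1 called 0. The causes were not tested. Depth is unknown, and with 5 libraries per genotype in 3 litters the median SE of a member's log2 fold change was 0.20, which limits the differences that can be detected.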

Other observations

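Platelet and megakaryocyte markers, which reach the cortex in blood, were called higher in litter 3 than in litter 1 for 3 of 4 tested genes, and summed to 57.2 to 134.7 TPM in litter 3 and 27.02 to 46.3 TPM in litter 1. In cKO against WT, 0 of them were called (limma), with sums of 27.02 to 113.7 TPM in cKO and 28.7 to 134.7 TPM in WT. Among hypoxia targets, 2 of 8 tested genes were called higher in litter 3 and 0 lower, against 5.8% and 25.8% of all genes (limma). Of the 8, 5 had estimates above 0 and 3 below. In cKO against WT, 0 of the 8 were called. Vegfa, the main attractant of sprouting vessels and a target of hypoxia factors, had 16.51, 18.55, 13.13, 36.55 and 21.91 TPM in cKO against 34.10, 19.31, 21.99, 26.19 and 15.04 TPM in WT. The genotypes overlapped, and in litter 5 Vegfa was higher in cKO 5 than in WT 5, where most endothelial transcripts were lower.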
